A study of Mus musculus with 9 samples.

Results

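The gene described here is Adgre1, which encodes F4/80, in the hippocampus of N4 Ube3a m-/p+ mice. It is 1 of the 54532 genes in the deposited tables and 1 of the 19782 genes whose counts were high enough to be tested. It was taken by its name, and it had been chosen because its level differed between the groups in these samples. Its own difference is therefore given as a description, with no test. The mice carry a Ube3a mutation on the maternal copy, with the paternal copy intact, and are of the fourth backcross generation, in which a loud sound sets off seizures. All 9 mice shared this genotype, the injection and the seizure tests, and there was no wild-type, uninjected or seizure-free group among the libraries. Each received 0.5 nmol of an oligonucleotide into a brain ventricle, which was Ant-134, an inhibitor of miR-134, in 5 mice and Scr, a scrambled control, in 4. Tissue was taken after repeated sound stimuli. The schedule described for seizure tests at this dose and generation was injection on postnatal day 21, stimuli on postnatal days 22, 24 and 26 and collection of brains on postnatal day 27, but it is not stated separately for the sequenced mice. Each library was made from poly-A RNA from the hippocampus of 1 mouse, so it holds all cells of that tissue together. The sample labels do not give the sex or the litter of each mouse.

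F4/80 is a surface receptor of the adhesion G protein-coupled receptor family with epidermal growth factor-like repeats outside the cell. It is the classic marker of mouse macrophages, and in the brain it is carried by microglia, the resident macrophages of the tissue, and by the macrophages of the meninges, the perivascular space and the choroid plexus. Eosinophils and some monocytes also carry it. Microglia and other tissue macrophages depend on Csf1r, the receptor for the growth factors encoded by Csf1 and Il34, and on a set of transcription factors that includes Spi1.

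Adgre1 (ENSMUSG00000004730) is a protein-coding gene on the plus strand at chr17:57358691-57483527 of GRCm38, a span of 124837 bases. No other gene of the table overlaps it. GENCODE M21 lists 5 transcripts of it. The longest has 22 exons, 3238 bases, a coding stretch of 2793 bases and a 3' UTR of 407 bases, and the length that the authors used for FPKM is also 3238 bases. None of the 3378 different runs of 50 bases in the 5 transcripts occurs in a transcript of another gene.

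The mouse miRNA that Ant-134 was made to block is shown here because its seed was searched for in Adgre1. The sequence is from RefSeq, at chr12:109734145-109734166 on the plus strand of GRCm38.p6, with the seed (bases 2 to 8) in capitals.
mmu-miR-134-5p: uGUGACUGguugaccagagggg
The sequences searched for were CAGTCAC, which pairs with the whole seed, and AGTCACA, which pairs with bases 2 to 7 and ends in A. They share the 6 bases AGTCAC. Both were read on the transcript strand, since a miRNA pairs with RNA. There were 0 matches in any of the 5 Adgre1 transcripts. For comparison, the last 407 bases of the longest coding transcript held a match in 4.83% of 21901 protein-coding genes, and the whole transcript held one in 32.9%.

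Adgre1 was lower in every Ant-134-treated mouse than in every Scr-treated mouse, at about 53% of the control level. The 5 Ant-134 libraries gave 296, 327, 183, 317 and 200 Adgre1 counts for replicates 1 to 5, and the 4 Scr libraries gave 485, 654, 476 and 580 for replicates 1 to 4. As CPM, which is the count scaled to the size of its library, the levels were 9.02, 8.50, 6.51, 10.4 and 6.62 with Ant-134. They were 15.2, 15.5, 13.96 and 17.0 with Scr. The groups did not overlap, and the step from the highest Ant-134 library to the lowest Scr library was 3.58 CPM, whereas the largest step between neighbouring libraries inside a group was 1.88 CPM. The means were 8.21 ± 1.65 CPM (SD, n = 5) and 15.4 ± 1.24 CPM (SD, n = 4). The fitted log2 fold change was -0.91 with an SE (standard error) of 0.13, and the ratio of the geometric means was 0.525. The deposited FPKM, which are scaled to gene length as well, were 2.51 ± 0.501 with Ant-134 (SD, n = 5) and 4.71 ± 0.380 with Scr (SD, n = 4).

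**Figure D1:**
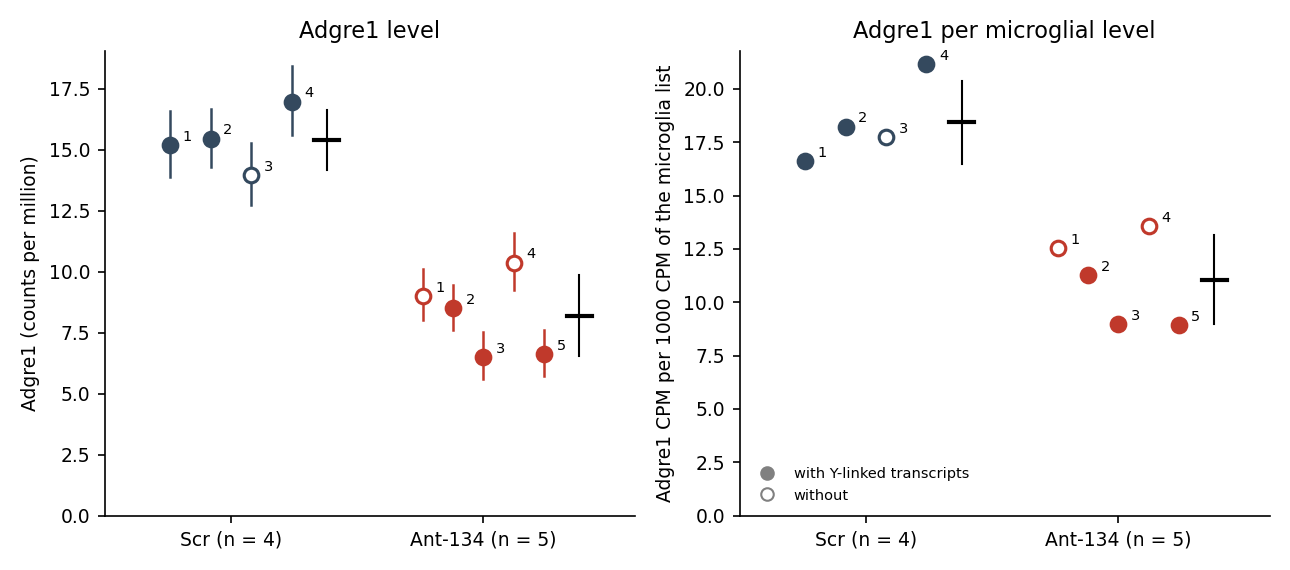
Left, Adgre1 CPM in each library (points, numbered by replicate) with exact 95% Poisson intervals of the count (coloured bars), and right, Adgre1 CPM per 1000 CPM of the microglia list. Black marks show the group mean ± SD, and open points are libraries without Y-linked transcripts. In both panels the 5 Ant-134 libraries lie below the 4 Scr libraries.

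The groups overlapped in depth. Totals were 28583298 to 38431058 counts with Ant-134 and 31985959 to 41978113 with Scr, and the Ant-134 library with the most counts, replicate 2, had 8.50 Adgre1 CPM. The counting error (1 SD) of Adgre1 was between 3.91% and 7.39% of the value. The exact 95% Poisson interval reached up to 11.6 CPM in the highest Ant-134 library and down to 12.7 CPM in the lowest Scr library, and it covers counting error only. Between mice the coefficient of variation was 20.1% with Ant-134 and 8.07% with Scr. The spread within Ant-134 was wide for a gene of this level. Among 2378 other genes within 1.5 times the mean CPM of Adgre1, the median coefficient of variation was 9.55% with Ant-134, and 91.0% of these genes varied less than Adgre1. With Scr the median was 8.85%, and 44.1% varied less. In the fit the biological coefficient of variation of Adgre1 was 13.8%, against a median of 10.9% in the same genes. The single common value fitted over all genes tested was 11.9%.

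Against the other genes of the table, the Adgre1 difference was at the far lower end, as follows from how it was chosen. A lower log2 fold change was found for 81 of the genes tested, nearly all of them at lower levels, since only Cxcl13 and Oasl2 had both a lower fold change and a mean CPM at or above the 11.4 CPM of Adgre1. Every Ant-134 library lay below every Scr library in 177 genes, which is 0.895% of the genes tested, and above every Scr library in 0.647%. Among the 2378 genes of like level it lay below in 31, which is 1.30%. The lowest log2 fold change among those genes was -0.83.

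Y-linked transcripts, which mark male tissue, were present in 6 libraries and close to 0 in 3, Ant-134 replicates 1 and 4 and Scr replicate 3. The groups are therefore not matched for this, with 3 of 5 Ant-134 and 3 of 4 Scr libraries holding the transcripts. Within Ant-134 the libraries without them had the highest Adgre1, 9.02 and 10.4 CPM against 6.51, 6.62 and 8.50. Within Scr the library without them had the lowest, 13.96 CPM against 15.2, 15.5 and 17.0. The fitted log2 fold change was -1.13 in the 6 libraries with Y-linked transcripts and -0.53 in the 3 libraries without them, of which only 1 is Scr. Both subsets were chosen after the data were seen, and the difference between them was not tested. With the Y-linked level as a covariate over all 9 libraries, the log2 fold change of Adgre1 was -0.94.

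The next question was how the Adgre1 level compared with the total level of microglial RNA. A list of 26 microglia genes without Adgre1 was measured in every library, with at least 122 counts for every gene. Per length, the mean FPKM of Adgre1 was 3.49, which is below 21 of the 26 genes and above 5, between Ly86 at 3.65 and P2ry13 at 3.13. The summed CPM of the list was 719, 753, 724, 766 and 741 with Ant-134 and 915, 848, 787 and 802 with Scr. These sums did not overlap either, but they lay much closer together than Adgre1, with a log2 difference of -0.18 against -0.93 for Adgre1 computed the same way. In a bulk sample, fewer cells of a type and less RNA per cell cannot be told apart.

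Adgre1 remained lower when it was given per microglial level. This value reuses the Adgre1 levels by which the gene was chosen. The microglia sums, 719 to 915 CPM over all libraries, differ too little to make the groups overlap. Per 1000 CPM of the microglia list, Adgre1 was at 12.5, 11.3, 8.99, 13.6 and 8.93 CPM with Ant-134 and at 16.6, 18.2, 17.7 and 21.2 CPM with Scr. The groups again did not overlap. The means were 11.1 ± 2.08 (SD, n = 5) and 18.4 ± 1.94 (SD, n = 4), and the log2 difference was -0.75 with a pooled within-group SD of 0.23. With the geometric mean of the list, with its 8 homeostatic genes alone (P2ry12, Tmem119 and Sall1 among them), without its 5 most abundant genes or on FPKM, the log2 difference was between -0.76 and -0.75. In the 6 libraries with Y-linked transcripts it was -0.94, and in the 3 without them -0.44. The order of the libraries by Adgre1 was not the order by the list. Scr replicate 1 had the highest microglia sum and the second lowest Adgre1 of its group, and Scr replicate 4 had the highest Adgre1 with the second lowest sum.

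**Figure D2:**
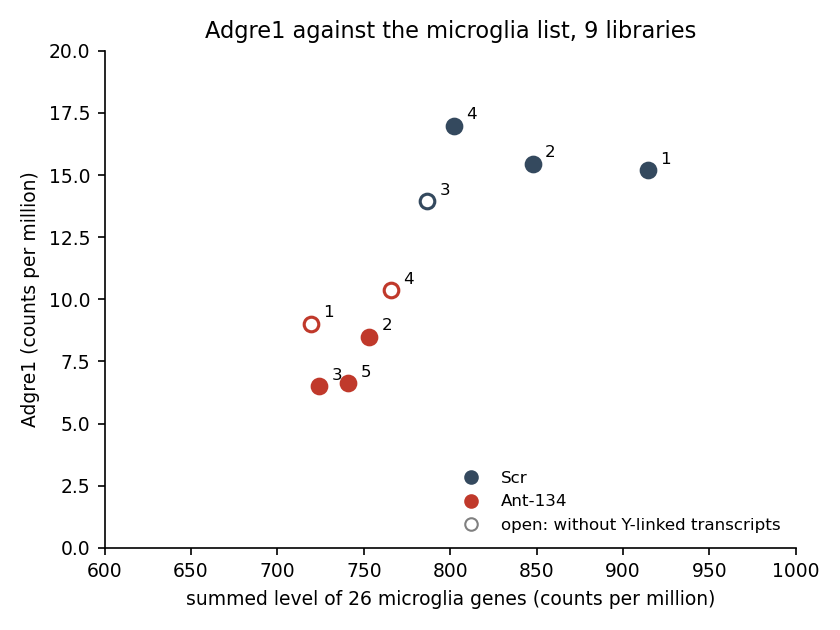
Adgre1 CPM against the summed CPM of the 26 microglia genes in each library, numbered by replicate. The x axis does not start at 0, and open points are libraries without Y-linked transcripts. The Ant-134 libraries lie at 719 to 766 CPM of the list and the Scr libraries at 787 to 915 CPM, while Adgre1 spans 6.51 to 17.0 CPM.

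The microglia genes themselves were lower by small amounts. All 26 had a negative log2 fold change, against 48.8% of all genes tested. Their median was -0.18 against 0.00 for all genes tested, and their fold changes lay between -0.33 and -0.02. At the unadjusted threshold of the study, p below 0.05, 9 of the 26 fell and 0 rose in edgeR's quasi-likelihood test. Over all genes tested 4.18% passed, with 2.69% lower and 1.49% higher. In none of the 26 genes did the groups stay apart as they did in Adgre1. Over all genes tested, every Ant-134 library lay below every Scr library in 0.895% and above in 0.647%, so 0 of 26 is near that share. The count of 9 falls was 6 without Scr replicate 1 and between 8 and 13 without any other library. The 9 genes were not called after Benjamini-Hochberg adjustment, where the smallest adjusted p of the list in edgeR was 0.91, and 0 of the 19782 genes had an adjusted p below 0.05 against 827 below 0.05 before adjustment. DESeq2 gave 16 of 37435 genes (0.0427%) after adjustment and 1027 (2.74%) before it.

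Of the most abundant microglia genes, C1qb, a subunit of the complement protein C1q, fell by 0.14 on the log2 scale, from 74.1 ± 4.78 to 67.4 ± 3.73 CPM. C1qa, another subunit, fell by 0.21, from 68.0 ± 2.57 to 58.9 ± 5.27 CPM. Ctss, the protease cathepsin S, had a log2 fold change of -0.13 (SE 0.09) and did not pass, but it passed without Ant-134 replicate 5, at -0.20. The largest differences of the list were those of Aif1, which encodes the actin-binding protein Iba1, with -0.33, and of Itgam, which encodes the integrin CD11b and did not pass, with -0.28. The fall of C1qb did not pass without Ant-134 replicate 2, at -0.12, or without Scr replicate 1, at -0.10. Itgam passed without Ant-134 replicate 2 or 4 or Scr replicate 4, with values between -0.36 and -0.32. Beside these genes, the Adgre1 value was -0.91.

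Growth factors and transcription factors that macrophages need came next. Of the 10 listed genes 9 were tested, since Csf2, which encodes GM-CSF, had 0 counts in every library, and 2 fell while 0 rose, against 2.69% lower and 1.49% higher over all genes tested. The count of falls was 3 without Ant-134 replicate 1 or 5 and 4 without Scr replicate 4. Csf1r, the receptor through which microglia survive, which is counted in the microglia list and not among these 10, fell by 0.23, from 116 ± 7.06 to 98.7 ± 8.58 CPM. Of its ligands, Csf1 fell by 0.23, from 36.9 ± 2.57 to 31.4 ± 4.33 CPM, and Il34 had a log2 fold change of 0.04 (SE 0.05). Tgfb1, a cytokine that microglia need to keep their identity, fell by 0.35, from 11.4 ± 1.04 to 8.95 ± 0.450 CPM, with every Ant-134 library below every Scr library. Among the transcription factors none passed. Spi1, which encodes PU.1, had a log2 fold change of -0.22 (SE 0.11), and Irf8 had -0.27 (SE 0.13). Both passed without certain single libraries, Spi1 without Ant-134 replicate 1 or 5 or Scr replicate 4 and Irf8 without Ant-134 replicate 4 or Scr replicate 3 or 4, with values between -0.33 and -0.25. Without Scr replicate 1 the differences were smaller, -0.16 for Spi1 and -0.12 for Irf8, and neither passed. Runx1 had 0.06, Cebpa -0.06 and Maf -0.08. The fall of Csf1 did not pass without Ant-134 replicate 4, at -0.20, or without Scr replicate 3, at -0.18.

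The other cells that can carry F4/80 gave a mixed picture. Of the 12 border macrophage genes 10 were tested, with a median log2 fold change of -0.02, and 3 of them fell and 0 rose, where 2.69% of all genes tested fell and 1.49% rose. Stab1, a scavenger receptor and the most abundant of the list by FPKM, fell by 0.28, from 23.7 ± 2.97 to 19.5 ± 2.08 CPM. Ms4a7 fell by 1.02 from 1.23 ± 0.468 to 0.609 ± 0.170 CPM, and the C-type lectin gene Cd209f fell by 1.87 from 1.26 ± 0.450 to 0.332 ± 0.177 CPM, both at low counts of 12 to 74 and 5 to 65. Cbr2 had a log2 fold change of -0.04 (SE 0.17), between -0.12 and 0.05 without single libraries. Mrc1 and Cd163, defining markers of these macrophages that were picked out after their values were seen, had 0.15 (SE 0.16) and 0.32 (SE 0.21). The summed CPM of the list was 34.0 to 41.6 with Ant-134 and 37.0 to 50.8 with Scr, so these ranges overlapped. In 1 of the 10 tested genes, Cd209f, every Ant-134 library lay below every Scr library, against 0.895% of all genes tested. The count of 3 falls was the same without any one library, while 1 gene rose without Ant-134 replicate 4 and the median lay between -0.09 and 0.03.

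Genes of blood-borne cells were read in the same way. Of the 5 eosinophil genes only Siglecf was tested, with a log2 fold change of -0.41 (SE 0.21), and it did not pass, but it passed without Scr replicate 2, at -0.53, or 4, at -0.51. The summed CPM of that list was 1.17 to 1.53 with Ant-134 and 1.32 to 2.26 with Scr. Of the 10 genes of monocytes and dendritic cells 8 were tested, with a median of -0.28. Of them 1 fell and 0 rose, where 2.69% and 1.49% of all genes tested did, and this became 0 falls without Ant-134 replicate 2 or 4 or Scr replicate 2 or 3. The median was -0.43 when Ant-134 replicate 2 was dropped and -0.14 when it was Ant-134 replicate 3. Plac8, the most abundant of them by FPKM, had a log2 fold change of -0.10 (SE 0.44), which lay between -0.29 and 0.14 without single libraries. Their summed CPM was 31.1 to 55.9 and 39.0 to 58.5. Of the neutrophil list 3 of 8 genes were tested and of the T and NK cell list 2 of 9, and none of these 5 passed. S100a9 had a log2 fold change of 0.28 (SE 0.49), which lay between 0.02 and 0.47 without single libraries, and Lck had -0.04 (SE 0.15), between -0.10 and 0.04. The other genes of the eosinophil, neutrophil and T and NK cell lists were below the filter on low counts.

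Genes that microglia raise when they are reactive were read next. All 14 were tested, with a median log2 fold change of -0.11, and 4 fell and 0 rose, against 2.69% and 1.49% of all genes tested. The log2 fold change was negative in 10 of the 14 genes and positive in 4, up to 0.35. In 1 gene every Ant-134 library lay above every Scr library, against 0.647% of all genes tested. The count of falls was 6 when Ant-134 replicate 1 was dropped, and it was 2 when Ant-134 replicate 2 or 5 or Scr replicate 1 was dropped. Without Ant-134 replicate 5 or Scr replicate 1, 1 gene of the list rose, and the median lay between -0.20 and -0.07 without single libraries. Itgax, which encodes the integrin CD11c, fell by 0.81 from 1.10 ± 0.185 to 0.617 ± 0.216 CPM. The chemokine gene Ccl3 fell by 1.11 from 1.43 ± 0.630 to 0.660 ± 0.295 CPM, and Ccl4 fell by 0.77 from 1.05 ± 0.567 to 0.614 ± 0.181 CPM. Axl, a receptor tyrosine kinase, fell by 0.15 from 60.2 ± 4.36 to 54.1 ± 4.64 CPM. The most abundant genes of the list, Apoe and Ctsb, which other brain cells also express, had log2 fold changes of -0.04 and -0.01. The fall of Ccl4 did not pass without Scr replicate 1 or 3 or Ant-134 replicate 2, 4 or 5, with log2 fold changes between -0.81 and -0.35. That of Axl did not pass without Ant-134 replicate 2 or 5 or Scr replicate 1 or 2, with values between -0.16 and -0.11.

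**Figure D3:**
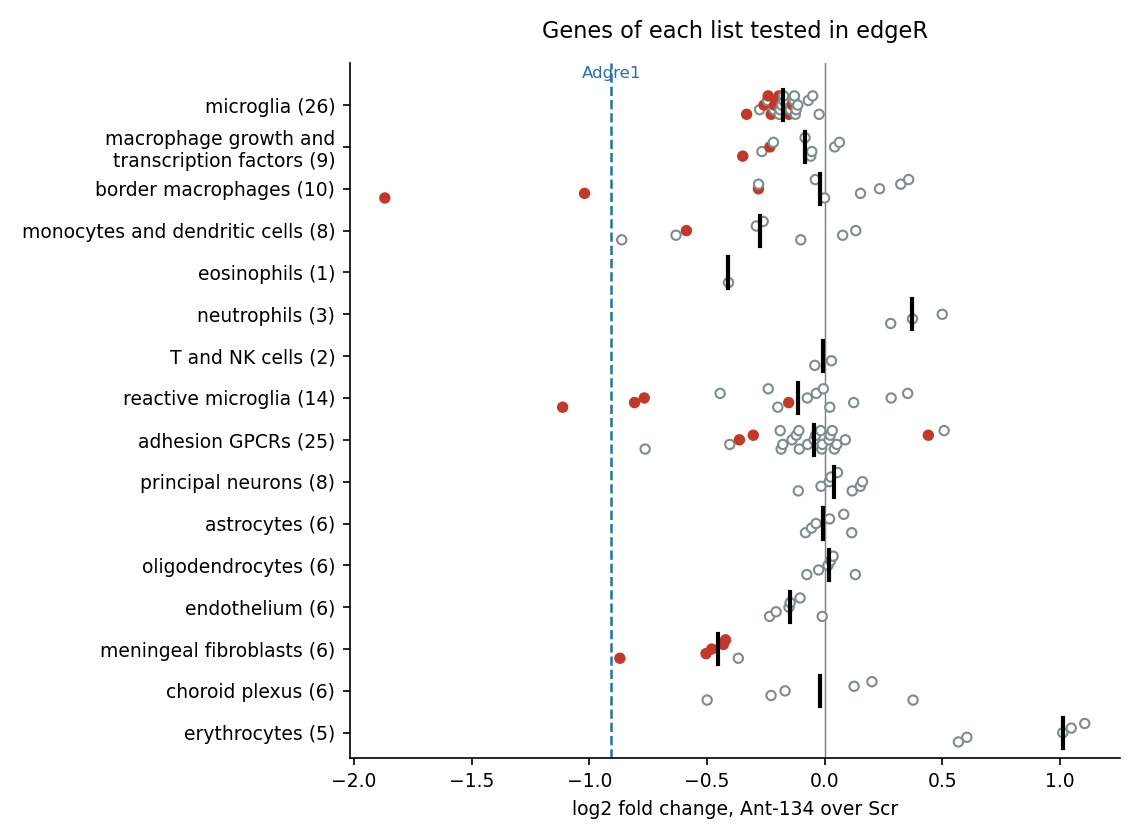
Log2 fold changes, Ant-134 over Scr, of the tested genes in each list, with the number of tested genes in parentheses. Filled points passed an unadjusted p below 0.05 in edgeR, black bars are medians, and the dashed line marks Adgre1 at -0.91, which lies outside the range of the 26 microglia genes.

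Lists for the other tissue in a dissected hippocampus were read beside Adgre1. The genes of meningeal fibroblasts, cells of the brain's outer coverings where F4/80-positive macrophages also live, were mostly lower with Ant-134. Of the 6 genes 5 fell and 0 rose, against 2.69% lower and 1.49% higher over all genes tested, with a median log2 fold change of -0.46. The count was 3 without Ant-134 replicate 4 or 5 and 2 without Scr replicate 2 or 4. In 2 of the 6 genes every Ant-134 library lay below every Scr library, against 0.895% of all genes tested. Dcn, the most abundant, had -0.37 (SE 0.21), between -0.47 and -0.23 without single libraries, and did not pass. The summed CPM of the list was 107, 144, 82.9, 106 and 110 with Ant-134 and 126, 168, 137 and 158 with Scr. Ant-134 replicate 2 was above 2 of the Scr libraries on this list and had 8.50 Adgre1 CPM. The part of the meninges in the Adgre1 difference was not tested.

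In the remaining lists of brain cells and blood none of the tested genes passed. The medians were 0.04 for principal neurons, -0.01 for astrocytes, 0.02 for oligodendrocytes and -0.15 for endothelium. All 6 endothelial genes had a negative log2 fold change, and 2 of them fell without Scr replicate 4 and 1 without Ant-134 replicate 3 or 5. The endothelial median was -0.05 without Scr replicate 2 and -0.23 without Scr replicate 4. Without single libraries the other medians lay between -0.08 and 0.12, and at most 1 neuronal gene passed in each direction. Of their most abundant genes, log2 fold changes were 0.03 for Camk2a, the kinase subunit that is a hallmark of forebrain excitatory neurons, 0.02 for Gfap and -0.15 for Cldn5. Without single libraries these values lay between -0.03 and 0.08 for Camk2a, between -0.05 and 0.14 for Gfap and between -0.26 and 0.00 for Cldn5. Camk2a was at 3191 to 4158 CPM in every library. Choroid plexus and blood genes varied widely between libraries, and their ranges overlapped between the groups. The choroid plexus sum ran from 66.9 to 2571 CPM with Ant-134 and from 78.6 to 2022 CPM with Scr, led by Ttr, and the erythrocyte sum from 69.0 to 403 and from 44.0 to 91.7 CPM, led by Hbb-bs. The choroid plexus median was -0.02, but it was -1.41 without Ant-134 replicate 1 and 0.66 without Scr replicate 3. The erythrocyte median was 1.01, with all 5 genes positive and none passing, and it was 0.23 without Ant-134 replicate 3. Of the Ant-134 libraries, replicate 1 had the highest choroid plexus sum with 9.02 Adgre1 CPM and replicate 4 the lowest with 10.4, and replicate 3 had the highest erythrocyte sum with 6.51.

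Adgre1 belongs to a gene family whose members are mostly carried by other cells in the brain. Of the 29 other adhesion G protein-coupled receptor genes listed 25 were tested, with a median log2 fold change of -0.05, and 2 fell and 1 rose, against the 4.18% of all genes tested that passed in either direction. The falls were 4 and the rises 2 without Scr replicate 2. The median lay between -0.08 and -0.02 without single libraries. By mean FPKM 10 of the 29 were above Adgre1 and 19 below, with Adgra2 at 3.66 and Adgrf5 at 3.08 next to it. Adgre5, of the same subfamily, which encodes the leukocyte receptor CD97, fell by 0.36. Its level was 7.47, 7.36, 6.73, 8.94 and 7.21 CPM with Ant-134 and 9.72, 10.9, 9.91 and 8.20 CPM with Scr, so its groups overlapped. Adgre4 had 4 to 25 counts and a log2 fold change of -0.76 (SE 0.40), and it did not pass. Its log2 fold change was -0.48 without Scr replicate 1 and -1.02 without Scr replicate 2, where it passed.

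Among the rest of the family, Adgrl4, a receptor of the endothelium, fell by 0.30 from 12.7 ± 2.29 to 10.3 ± 0.198 CPM, and Adgrg2 rose by 0.44 from 1.01 ± 0.222 to 1.38 ± 0.131 CPM. The neuronal receptors Adgrb2, Adgrb1 and Adgrl1, the most abundant of the family, had log2 fold changes of -0.01, 0.02 and 0.03 with a standard error of 0.04 each. The fall of Adgrl4 did not pass without Scr replicate 2, at -0.24, or without Scr replicate 3, at -0.22. The rise of Adgrg2 did not pass without any one of 7 of the 9 libraries, with values between 0.33 and 0.45, nor in DESeq2.

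The genes beside Adgre1 on chromosome 17 were then read. Within 1 Mb of either end, 38 other genes were tested. Of these 2 fell and 3 rose, which is 13.2% of them against 4.18% of all genes tested, and their median log2 fold change was 0.00. Without Scr replicate 1 or Scr replicate 2 only 1 of them passed. The nearest on the start side is Vav1, 30.7 kb away, a signalling protein of blood cells and microglia. Vav1 was at 8.75, 8.55, 7.94, 9.92 and 8.57 CPM with Ant-134 and at 10.7, 9.71 and 9.64 CPM in Scr replicates 2 to 4, with replicate 1 above them. It fell by 0.23, and its groups overlapped. Trip10, at 95.03 kb, had a log2 fold change of -0.07 (SE 0.11), between -0.13 and -0.01 without single libraries. On the other side the nearest tested genes were Cntnap5c at 286 kb, with 0.15 (SE 0.17), and Rpl7a-ps5 at 355 kb, with 0.15 (SE 0.14). Without single libraries their values lay between -0.02 and 0.25 and between 0.02 and 0.22. Rpl7a-ps5 is a pseudogene of a ribosomal protein gene, and its counts may be shared with copies of that gene.

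The other neighbours that passed went in both directions. Tnfsf14 rose by 0.95 and Pspn by 0.86, at 9 to 38 and 5 to 18 counts. Ndufa11, a subunit of the respiratory chain, rose by 0.14 and Catsperd, a gene of sperm ion channels, fell by 0.66 at 8 to 23 counts. C3, 131 kb from Adgre1, which encodes the central complement protein and was picked out after its value was seen, had a log2 fold change of -0.85 (SE 0.72) and did not pass. None of the 5 called neighbours, Vav1, Tnfsf14, Pspn, Ndufa11 and Catsperd, passed in every fit with a library left out, though each kept its sign. Vav1 did not pass without Ant-134 replicate 3 or Scr replicate 1 or 2, with values between -0.21 and -0.20. Tnfsf14 lost its call without any one of 4 libraries, with values between 0.73 and 0.92, and Pspn without any one of 5, between 0.64 and 0.85. Ndufa11 lost its call without any one of 6, with values between 0.09 and 0.14, and Catsperd without any one of 6, between -0.68 and -0.58.

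**Figure D4:**
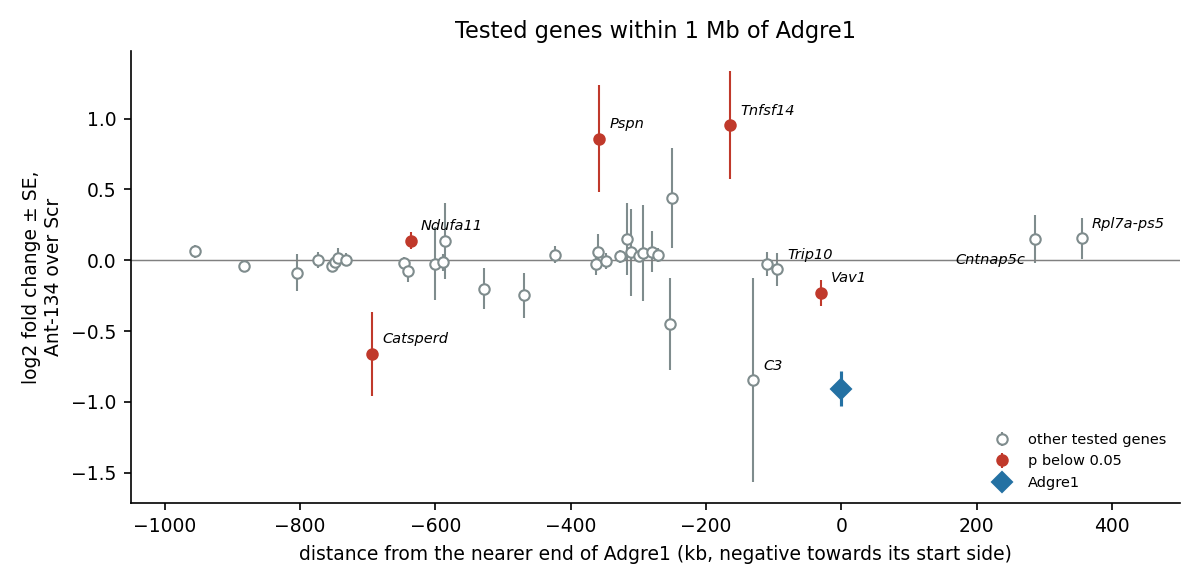
Log2 fold change ± standard error, Ant-134 over Scr, of the 38 other tested genes within 1 Mb of Adgre1, by their distance in kb from its nearer end. Filled red points passed an unadjusted p below 0.05, and the blue diamond is Adgre1 at -0.91. The points lie on both sides of 0, with a median of 0.00.

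The genes whose levels followed Adgre1 most closely depended on whether the group difference was kept. Over log2 CPM in the 9 libraries as they are, the highest Pearson correlations were those of Myo1g (r = 0.96), Ncf1 (0.95), Inpp5d (0.94), Ccl5 (0.93) and Pot1b (0.92), against 0.78 at the 99th percentile of 19781 genes. These values include the step between the groups, which all 5 genes show with no overlap. Myo1g, a myosin of blood cells, was at 1.92, 1.46, 1.39, 2.46 and 1.52 CPM with Ant-134 and at 3.45, 3.19, 3.02 and 3.13 CPM with Scr. Ncf1, a subunit of the phagocyte NADPH oxidase, was at 12.9, 13.1, 12.7, 14.4 and 11.9 CPM with Ant-134 and at 17.9, 17.6, 15.3 and 16.7 CPM with Scr. Inpp5d, the phosphatase SHIP1 of blood cells and microglia, was at 15.7 to 18.3 and 19.5 to 21.97 CPM. Ccl5, a chemokine, was at 0.783 to 2.80 and 3.87 to 6.56 CPM, and Pot1b, which binds telomeres, at 3.04 to 3.51 and 3.67 to 4.13 CPM. Pot1b lies on chromosome 17 like Adgre1, at 55651951 to 55712628, outside the 1 Mb window. Since these 5 genes were picked for their likeness to a gene chosen by this difference, no test is given for them.

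Over deviations from the group means the list was a different one. The highest correlations were those of Ints4 (r = 0.97), Gm12227 (0.95), Hnrnpf (0.95), Ttbk2 (0.95) and Cdca3 (0.95), against 0.82 at the 99th percentile, and their log2 fold changes between groups lay between -0.21 and 0.03. With Spearman's rho in place of Pearson's r, 1 of the 5 genes was kept in each list. Of the 26 microglia genes 18 had a positive correlation with Adgre1 over the deviations, with a median of 0.27, from -0.62 for P2ry12 to 0.59 for Csf1r. Each of these values rests on 9 libraries that share the same scaling.

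The Adgre1 difference was lower than 0 in every one of 22 alternative settings. Leaving out libraries could not change this sign, because the gene was chosen for this difference and its groups did not overlap. With any one library left out, the lowest value was -1.005, when Ant-134 replicate 4 was dropped, and the highest -0.84, when it was Ant-134 replicate 3 or 5. DESeq2 gave -0.90, and libraries scaled to the microglia list gave -0.74. On log2(FPKM + 1) it was -0.71, a scale that understates changes of low genes.

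**Figure D5:**
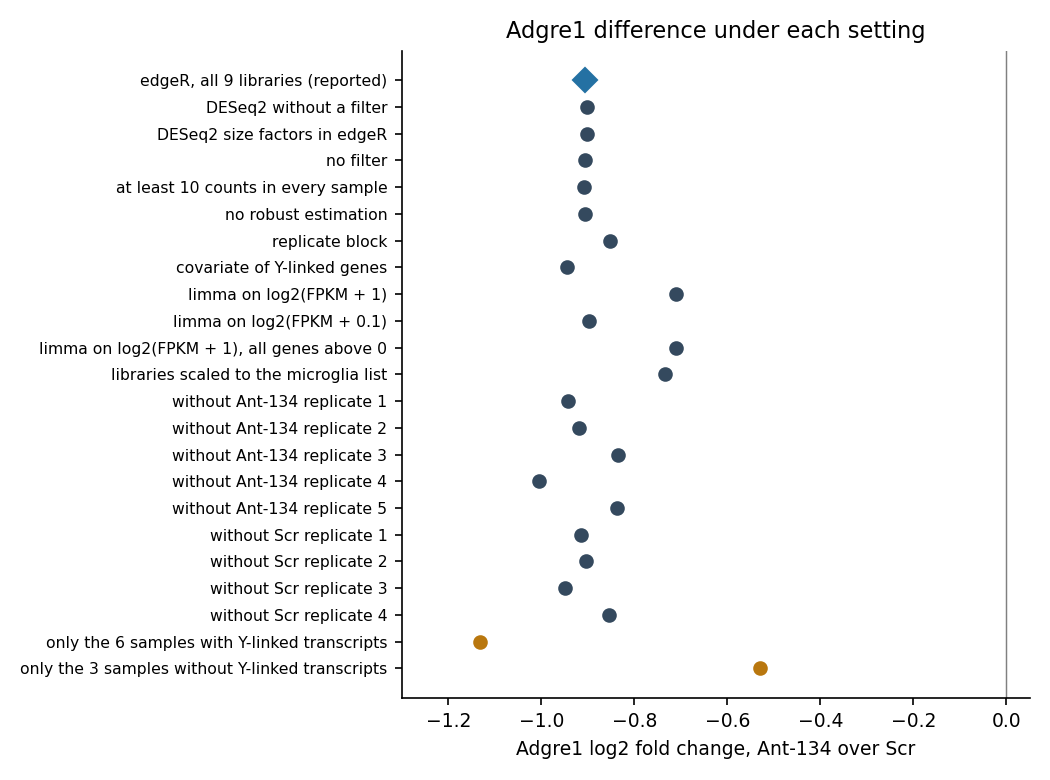
Log2 fold change of Adgre1, Ant-134 over Scr, under each setting: the reported fit (diamond), the other settings (dark points) and the subsets by Y-linked transcripts that were added after the data were seen (orange). The values range from -1.13 to -0.53.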

How the data were processed

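Hippocampal poly-A RNA-seq of 9 N4 Ube3a m-/p+ mice was analysed, 5 with Ant-134 and 4 with Scr, grouped by their labels. Per the submitters' processing notes, the tools were CASAVA 1.8, HISAT2 2.0.5 and featureCounts 1.5.0-p3. The authors deposited raw gene counts on GRCm38 and FPKM. By library, these FPKM were 0.978 to 1.007 times the value computed from counts, gene length and library total. Whether counting used strand is not given in the sources used here.

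Counts were fitted with edgeR 4.0.16 (R 4.3.3; filterByExpr, minimum count 10; TMM; robust quasi-likelihood test, no covariate), checked on simulated data. Levels are CPM of TMM-scaled libraries. Each library is a separate mouse by the study's account, and no pair within a group agreed within counting noise (chi-square per gene 8.37 or more). A gene was called, written as rose or fell, at the study's unadjusted p below 0.05, with Benjamini-Hochberg adjustment over every gene tested. Adgre1 and the gene lists were chosen with earlier results of these data known. Named genes are Adgre1; Adgre4 and Adgre5; the most abundant of each list (4 for microglia, 3 for the receptor family, 2 for border macrophages and reactive microglia, 1 for the others); the 3 largest microglia differences; all macrophage factors and Csf1r; called genes of the receptor, border and reactive lists; the 2 nearest genes on each side and called neighbours; and the 5 most correlated genes in each of 2 ways. Alternatives were DESeq2 1.42.0, its size factors, other filters, no robust estimation, a replicate block, a Y-linked covariate, limma 3.58.1 (log2 FPKM, pseudocounts 1 and 0.1), and each library left out. Some members of the gene lists are counted in their lists and are not reported here by name.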

Additional observations from a re-analysis of the deposited data

Results flagged for a closer look

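For Adgre1, the other named genes, the lists and the library totals, 166 sets of values (1 for Ant-134 and 1 for Scr each) were searched for a library far from the rest. In 13 of them 1 was found, and chance gives about 1 in 20, or 8.3. Neither the Adgre1 level nor its value per microglial level was among them.

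Irf8, a transcription factor of microglia, was at 17.0 CPM in Scr replicate 1 and 11.3 to 12.3 CPM in the other Scr libraries. C1qb was at 74.0 CPM in Ant-134 replicate 5 and 65.1 to 66.8 CPM in the others. Ctsb was at 533.8 CPM in Ant-134 replicate 1 and 492 to 499 CPM in the others. The summed genes of monocytes and dendritic cells were at 39.0 CPM in Scr replicate 3 and 58.4 to 58.5 CPM in the others.

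Of the genes near or like Adgre1, Cntnap5c was at 13.8 CPM in Ant-134 replicate 4 and 7.78 to 9.32 CPM in the others. Rpl7a-ps5 was at 7.90 CPM in Scr replicate 2 and 11.8 to 12.03 CPM in the others. Ttbk2 was at 65.6 CPM in Scr replicate 3 and 72.2 to 73.2 CPM in the others.

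The choroid plexus gene Ttr was at 2417 CPM in Ant-134 replicate 1 and 46.0 to 638 CPM in the others, and the summed list was at 2571 CPM against 66.9 to 679 CPM. Hbb-bs, a globin gene, was at 215.5 CPM in Ant-134 replicate 3 and 33.9 to 56.2 CPM in the others, and the erythrocyte sum was at 403 CPM against 69.0 to 116 CPM. The Y-linked gene Eif2s3y was at 0.117 CPM in Scr replicate 3 and 74.2 to 83.3 CPM in the others, and the Y-linked sum was at 0.352 CPM against 178 to 191 CPM.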

How the results depend on the processing

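For Adgre1, the only settings that moved its log2 fold change or its value per microglial level by more than 1 within-group SD were those with the 3 libraries without Y-linked transcripts, which gave -0.53 and -0.44. Leaving out single libraries gave -1.005 to -0.84 and -0.83 to -0.68. The count of 827 genes at an unadjusted p below 0.05 was 1775 with no filter, 1467 with limma on log2(FPKM + 1) for all genes with any FPKM above 0, 1528 in the 3 libraries, where Scr has 1 library and its spread was taken from the other group, and 629 to 973 without single libraries. The microglia count of 9 falls was 6 to 13 without single libraries, with 0 rises. It is not given for the 3 libraries, where Scr has 1. The cause of these shifts was not tested. Between libraries of the same replicate number the correlations of deviations were -0.12, -0.07, -0.02 and 0.01. They gave no sign that the numbers mark pairs, but they cannot exclude pairs by litter or handling. The paper calls the Scr-treated mice littermates, without naming pairs. With a replicate block, in which Ant-134 replicate 5 has no partner, the Adgre1 log2 fold change was -0.85, and 808 genes and 12 microglia genes passed. Of the other named genes, 22 were called and not named for their likeness to Adgre1. Many were named because they passed, so their tally is a description: they kept their sign under every setting, passed in 353 refits and missed the threshold in 104. Named genes that were not called passed in 26 refits.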
